A study of Mus musculus with 4 samples.

Results

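The genes described here were 35 members of the PI3K, AKT and mTOR signaling pathway, out of 53465 genes in a table of RNA-seq counts. They were chosen by symbol for their known roles, with earlier results of these data known. The list runs from the catalytic and regulatory subunits of PI3K through AKT, TSC and RHEB to the mTOR complexes, the Ragulator and RAG proteins of the lysosome, and the direct targets of mTORC1. The cells were MDSCs, a mixed population of immature myeloid cells expanded by tumors, pulled out with beads against Gr-1 from the spleen cells of male BALB/c mice that had received 4T1 mammary carcinoma cells at 6 weeks of age. They were cultured for 6 h in control medium (control group, 2 libraries) or in medium containing 5 μg/mL of the green tea catechin EGCG (EGCG treatment group, 2 libraries). Cells of both groups came from tumor-bearing mice, and the Gr-1 antibody binds both Ly-6G and Ly-6C, so granulocytic and monocytic cells were sorted together. Neither the labels nor the methods of the study say if replicate libraries are from separate mice or wells, so the p-values measure only the spread between these libraries, which may be technical. The comparison asks which transcripts of this pathway differ in level between EGCG-treated and control MDSCs.

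PI3K enzymes phosphorylate a membrane lipid to make PIP3, which brings the kinases PDK1 and AKT to the membrane, where PDK1 phosphorylates and activates AKT. AKT then inhibits FOXO transcription factors, GSK3 and the TSC complex, and loss of TSC activity lets the small GTPase RHEB switch on mTORC1, which amino acids bring to the lysosome through the RAG GTPases and their anchor Ragulator. Active mTORC1 phosphorylates the S6 kinases and the eIF4E-binding proteins and so raises protein synthesis. In myeloid cells the gamma and delta forms of PI3K are known for carrying chemokine, cytokine and Fc receptor signals. Most steps of this pathway run by phosphorylation, which transcript counts do not measure.

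Mtor differed by -16.4% and Eif4ebp1 by 18.3% between the EGCG treatment group and the control group, the members with the lowest and the highest log2 fold change, and none of the 35 passed the test across all genes. The libraries held 17767318 to 18390385 counts, and levels are given as CPM, the count scaled to a common library total, with library sizes scaled by the TMM method. A total of 14682 genes had enough counts to be tested, and all 35 members were among them. Tested with edgeR's quasi-likelihood test and Benjamini-Hochberg adjustment over all tested genes, 22 genes of the whole table passed an adjusted p of 0.05 (0.15%), and 0 of the 35 members did. The calls of the whole table were 0.136% of genes lower and 0.0136% higher. With a library left out in turn, 0.804% (control replicate 1), 3.68% (control replicate 2), 0.633% (EGCG replicate 1) and 1.33% (EGCG replicate 2) of all tested genes passed, and again 0 members did. With 2 libraries against 2, an exact permutation test of a single gene cannot give a two-sided p below 0.333, so no such test was made. At an unadjusted p under 0.05, 12.2% of all tested genes were called (7.02% below and 5.22% above control), and 4 members were: Mtor and Rictor were lower, and Eif4ebp1 and Rragc were higher. Without control replicate 1 this count was 0 lower and 3 higher, against 4.27% and 2.84% of all tested genes, and without control replicate 2 it was 5 lower and 5 higher, against 8.26% and 7.3%. It was 2 lower and 3 higher without EGCG replicate 1, against 6.31% and 4.12%, and 2 lower and 1 higher without EGCG replicate 2, against 6.57% and 3.88%. DESeq2 also called 0 members after adjustment, and its unadjusted p was under 0.05 for 1 lower and 2 higher members, against 3.69% and 2.59% of all tested genes.

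Across the members, 16 had a log2 fold change above 0 and 19 below (20 and 15 after a correction for gene length), whereas 50.6% of all tested genes lay above 0. The EGCG libraries lay wholly above both control libraries for 8 members and wholly below both for 9, and over all tested genes these shares were 21.5% and 21.2%, or 42.7% in all. The median log2 fold change of the members was -0.02, against 0.0031 over all tested genes. The fold changes ran from -0.26 (Mtor) to 0.24 (Eif4ebp1), with standard errors of 0.07 to 0.14 and adjusted p-values of 0.232 to 0.980. The 95% interval of every member lay within 1.5-fold in either direction, with the lowest bound at -0.45 and the highest at 0.45 on the log2 scale. These intervals cover only the spread between these libraries, which may be technical. An adjusted p above the threshold does not show that the groups were alike.

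**Figure D1:**
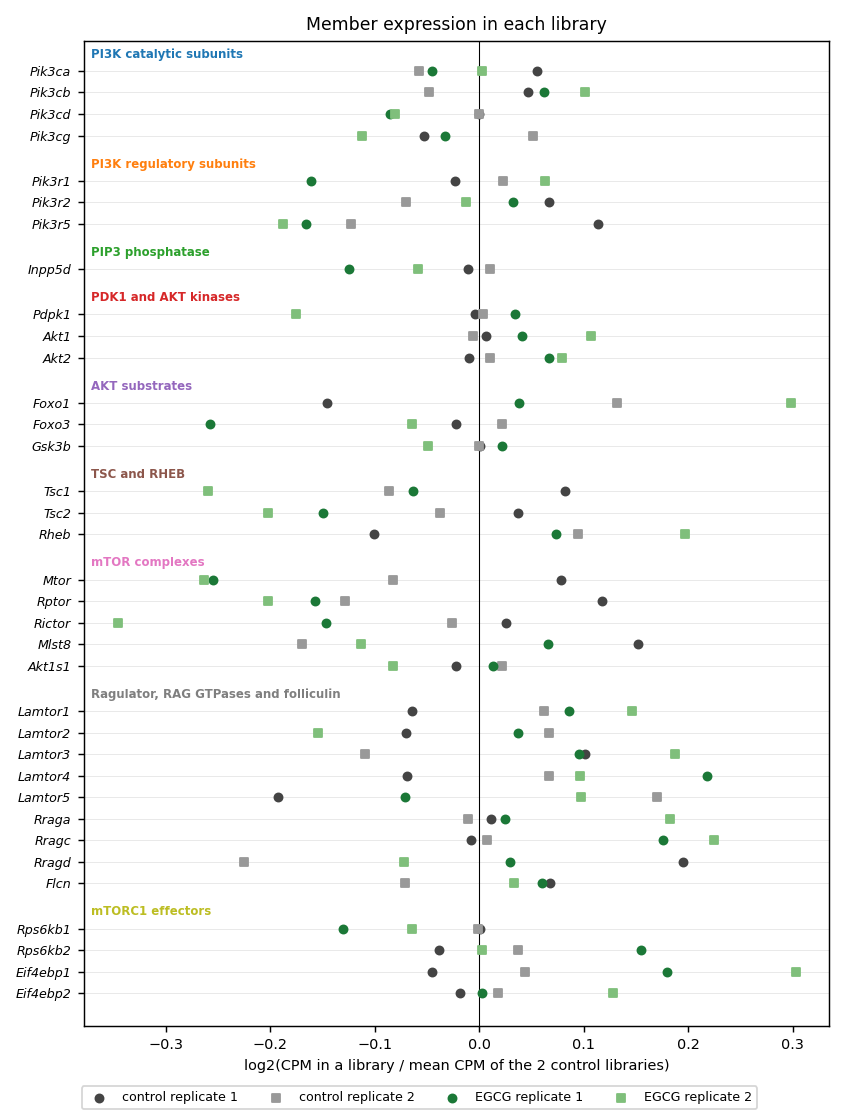
Level of each of the 35 members in each library as the log2 ratio of its CPM to the mean CPM of the 2 control libraries, ordered by role. Circles are replicate 1 and squares replicate 2, in black and gray for control and in dark and light green for EGCG. The EGCG libraries sit wholly below the control libraries for Mtor and Rictor and wholly above them for Rragc and Eif4ebp1.

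Levels of different genes can be compared only per length, so RPKM was computed from the exonic length of each gene. The members were well expressed, with a median of 14.0 RPKM against 4.06 RPKM over the 14666 tested genes with a known length. Akt1, the AKT kinase gene, was the highest member at 134 RPKM over the 4 libraries. It was followed by Lamtor4, a Ragulator subunit, at 113 RPKM, and by the eIF4E-binding protein genes Eif4ebp2 and Eif4ebp1 at 75.8 and 60.0 RPKM. Next came Pik3cd at 59.8 RPKM, whose range overlapped that of Eif4ebp1, and then Lamtor1, Inpp5d and Pik3cg at 51.4, 50.2 and 49.1 RPKM, which overlapped in turn. At the other end of the order, Mtor stood at 5.19 RPKM, Rictor at 2.74 RPKM, Rptor at 2.36 RPKM and Foxo1, the lowest, at 2.28 RPKM. With the length of the longest transcript in place of all exons, Akt1 and Lamtor4 still led, but Lamtor1 (85.4 RPKM) and Inpp5d (77.3 RPKM) stood above Pik3cd (76.1 RPKM), Eif4ebp2 (75.8 RPKM) and Eif4ebp1 (65.9 RPKM). Of the 34 pairs of neighbours in the order, 23 overlapped in their range over the libraries. The core kinase Mtor and its partners Rptor and Rictor were therefore among the lowest members, while the PI3K forms of leukocytes and Akt1 were among the highest.

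**Figure D2:**
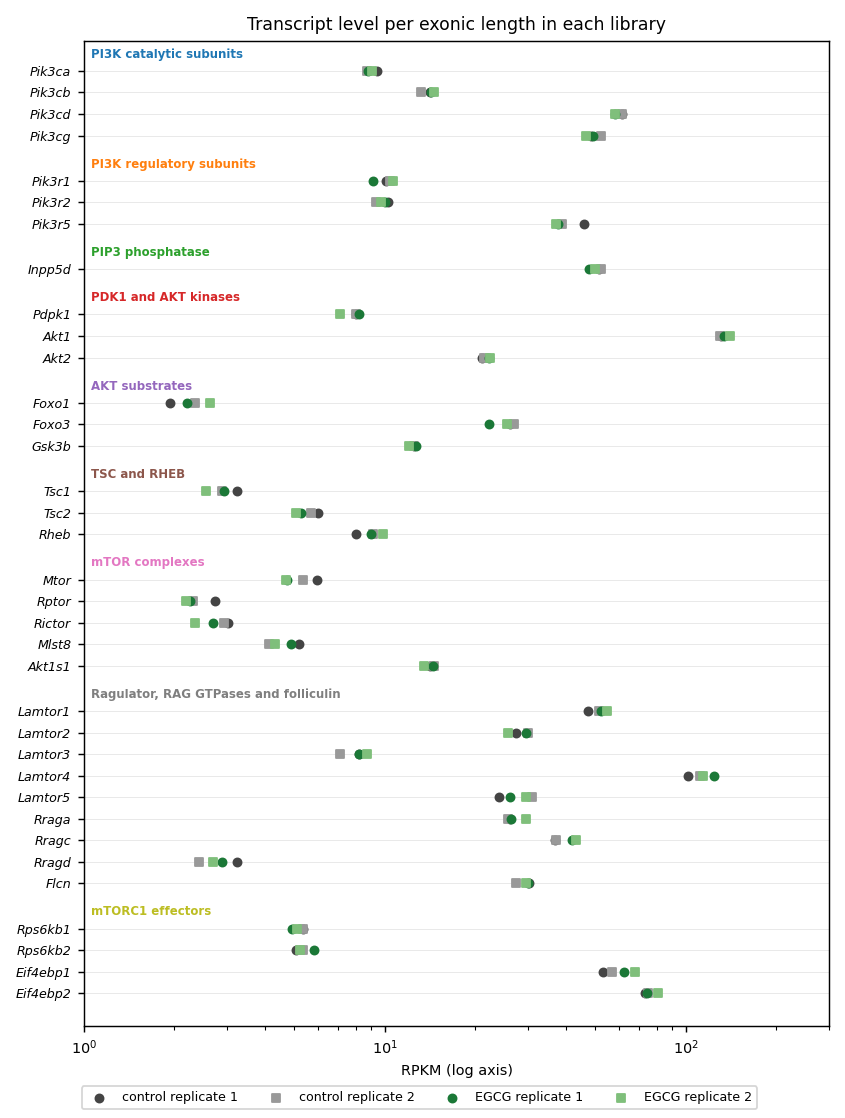
Level of each member per kilobase of exonic length (RPKM, log axis) in each library, ordered by role. Circles are replicate 1 and squares replicate 2, in black and gray for control and in green for EGCG. Akt1 leads at 134 RPKM and Foxo1 is lowest at 2.28 RPKM, and the libraries of a gene lie close together next to the differences between genes.

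Among the PI3K catalytic subunits, the leukocyte forms made up most of the message. Pik3cd, encoding the delta form, and Pik3cg, encoding the gamma form, together took 82.4% and 83.8% of the RPKM of the class I catalytic subunits in control MDSCs, and 82.3% and 81.5% after EGCG. The rest came from Pik3cb at 14.0 RPKM and Pik3ca at 8.71 to 9.42 RPKM, the beta and alpha forms that most tissues express. Pik3cd was at 385 and 385 CPM in the control libraries and at 363 and 364 CPM in the EGCG libraries. It was lower without overlap, but by little (log2 fold change -0.08, SE 0.07, adjusted p = 0.694). Pik3cg was at 408 and 439 CPM in the control libraries and at 414 and 392 CPM in the EGCG libraries, and its groups overlapped (log2 fold change -0.07, SE 0.08, adjusted p = 0.760). Pik3cb was at 101 and 94.9 CPM against 102 and 105 CPM with EGCG. It was higher without overlap (log2 fold change 0.08, SE 0.08, adjusted p = 0.717). Pik3ca was at 85.7 and 79.2 CPM against 79.9 and 82.6 CPM, with both EGCG libraries between the control libraries (log2 fold change -0.02, SE 0.08, adjusted p = 0.947). The 95% interval of Pik3cd, -0.24 to 0.07, and that of Pik3cb, -0.08 to 0.24, both held 0. With a library left out, Pik3cb ran from 0.04 (control replicate 2) to 0.13 (control replicate 1) and Pik3cg from -0.12 (control replicate 1) to -0.02 (control replicate 2). With a correction for gene length, Pik3cd was at -0.05, Pik3cb at 0.14 and Pik3cg at 0.0017.

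The regulatory subunits hold the catalytic subunits stable and recruit them to receptors. Pik3r5, whose product ties the gamma form to G protein-coupled receptors, had the largest difference of the 3 measured. It was at 254 and 216 CPM in the control libraries and at 209 and 206 CPM in the EGCG libraries. Both EGCG libraries were lower than both control libraries, although control replicate 1 stood above the other 3 libraries (log2 fold change -0.18, SE 0.08, adjusted p = 0.420). Its log2 fold change ran from -0.29 to -0.05 with a library left out, and -0.05 was the value without control replicate 1. Pik3r1 and Pik3r2, the regulatory subunits that bind phosphotyrosine, had log2 fold changes of -0.04 and 0.0098 with overlapping groups. Inpp5d encodes SHIP1, the blood-cell phosphatase that removes the lipid product of PI3K. It was at 391 and 397 CPM in the control libraries and at 361 and 378 CPM in the EGCG libraries, lower without overlap (log2 fold change -0.09, SE 0.07, adjusted p = 0.665), and its log2 fold change was -0.06 without EGCG replicate 1 and -0.03 with a correction for gene length.

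Akt1 and Akt2 both had log2 fold changes a little above 0. Akt1 was at 538 and 533 CPM in the control libraries and at 551 and 576 CPM in the EGCG libraries (log2 fold change 0.07, SE 0.07, adjusted p = 0.736). Akt2 was at 150.2 and 152 CPM and at 159 and 159.8 CPM (log2 fold change 0.07, SE 0.07, adjusted p = 0.734). In each case the EGCG libraries lay above both control libraries, and the balance between both kinases stayed close, with Akt1 taking 86.2% and 85.9% of their summed RPKM in control MDSCs and 85.8% and 86.3% after EGCG. Without EGCG replicate 2 the log2 fold change of Akt1 was 0.04, and with a correction for gene length that of Akt2 was 0.13. Of the 31-base words in the transcripts of Akt2, 13.3% also occur in other genes, so its counts are less certain than those of Akt1. Pdpk1, encoding the PDK1 kinase that activates AKT, had a log2 fold change of -0.07 with overlapping groups (adjusted p = 0.807 by edgeR). Among the substrates of AKT, the transcription factor genes Foxo1 and Foxo3 differed in sign. Foxo1 was at 16.8 and 20.3 CPM in the control libraries and at 19.0 and 22.8 CPM in the EGCG libraries, with overlap (log2 fold change 0.17, SE 0.13, adjusted p = 0.631). Foxo3 was at 198 and 204 CPM and at 168 and 192 CPM, lower without overlap (log2 fold change -0.16, SE 0.08, adjusted p = 0.464). Leaving out EGCG replicate 2 gave 0.04 for Foxo1 and -0.26 for Foxo3, leaving out control replicate 1 or 2 gave 0.04 or 0.32 for Foxo1, and leaving out EGCG replicate 1 gave 0.30 for Foxo1 and -0.06 for Foxo3. Foxo3 was by far the more abundant, at 92.6% ± 0.785 of their summed RPKM in control MDSCs and 90.8% ± 0.272 after EGCG (SD, n = 2 libraries each). Gsk3b, the glycogen synthase kinase gene, was at 123 and 123 CPM against 124 and 119 CPM and overlapped.

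The TSC complex restrains mTORC1 by switching off RHEB. Tsc2, which encodes the GTPase-activating subunit, was at 57.6 and 54.7 CPM in the control libraries and at 50.6 and 48.8 CPM in the EGCG libraries. It was lower without overlap (log2 fold change -0.18, SE 0.08, adjusted p = 0.421), and 9.72% of its 31-base words occur in other genes, and its exons overlap those of Pkd1. Its scaffold partner Tsc1 was at 38.2 and 34.0 CPM and at 34.5 and 30.1 CPM, with overlap (log2 fold change -0.16, SE 0.10, adjusted p = 0.585). Rheb itself was at 61.7 and 70.7 CPM and at 69.7 and 75.9 CPM, with overlap (log2 fold change 0.14, SE 0.09, adjusted p = 0.583). Both subunits that restrain the GTPase thus had log2 fold changes below 0 and the GTPase one above 0, but none passed an unadjusted p of 0.05 in this fit. With a library left out, Tsc1 ran from -0.26 to -0.06 (nearest 0 without EGCG replicate 2 and without control replicate 1), Tsc2 from -0.21 to -0.13 and Rheb from 0.05 to 0.24 (lowest without control replicate 1). With a correction for gene length, Tsc1 was at -0.04, Tsc2 at -0.09 and Rheb at 0.20.

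All 5 genes of the mTOR complexes had log2 fold changes below 0, with a median of -0.18 on the log2 scale, and they were below 0 in every setting with all libraries kept, though Mlst8 was above 0 without control replicate 1, and Mlst8 and Akt1s1 without EGCG replicate 2. Leaving out control replicate 1 gave a median of -0.05, and leaving out control replicate 2 one of -0.27. Mtor (chr4:148448611-148557683, GRCm38, plus strand), the kinase of both complexes, was counted 1102 and 965 times in control MDSCs and 869 and 851 times after EGCG. Scaled to library size these were 60.4 and 54.0 CPM and 47.9 and 47.6 CPM, with means of 57.2 ± 4.49 and 47.8 ± 0.200 CPM (SD, n = 2 libraries each). Both EGCG libraries were lower than both control libraries, and the spread within the control group was larger than that within the EGCG treatment group. The difference was -16.4% (log2 fold change -0.26, SE 0.09, 95% interval -0.45 to -0.07, unadjusted p = 0.0107, adjusted p = 0.263 by edgeR), and the adjusted p ran from 0.149 to 0.686 over the other settings with all libraries kept and from 0.0536 to 0.851 with a library left out. Rictor (chr15:6708379-6800401, plus strand), the scaffold of mTORC2, was counted 935 and 883 times in control MDSCs and 824 and 707 times after EGCG. These were 51.2 and 49.4 CPM against 45.4 and 39.6 CPM, with EGCG replicate 2 the lowest. The log2 fold change was -0.24 (SE 0.09, 95% interval -0.44 to -0.04, unadjusted p = 0.0209, adjusted p = 0.323 by edgeR), and the adjusted p ran from 0.199 to 0.812 over the other settings with all libraries kept and from 0.194 to 0.769 with a library left out. Leaving out control replicate 1 gave -0.17 for Mtor, and leaving out EGCG replicate 2 gave -0.15 for Rictor.

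Rptor encodes Raptor, the scaffold of mTORC1. It was at 36.7 and 30.9 CPM in the control libraries and at 30.3 and 29.4 CPM in the EGCG libraries. It was lower without overlap, but control replicate 1 stood apart from the other 3 libraries (log2 fold change -0.18, SE 0.10, adjusted p = 0.528), and without that library the log2 fold change was -0.05. Rictor made up 52.6% and 56.0% of the summed RPKM of Rictor and Rptor in control MDSCs and 54.4% and 51.7% after EGCG, and the groups overlapped. The remaining subunits did not separate the groups. Mlst8, shared by both complexes, was at 22.9 and 18.4 CPM against 21.6 and 19.1 CPM (log2 fold change -0.02, SE 0.13, adjusted p = 0.968). Akt1s1, encoding the mTORC1 inhibitor PRAS40, was at 43.4 and 44.7 CPM against 44.5 and 41.6 CPM (log2 fold change -0.03, SE 0.09, adjusted p = 0.920). Overlap with Bricd5 makes Mlst8 less certain, with 18.7% of its 31-base words in other genes.

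Of the 9 genes of the Ragulator, the RAG GTPases and folliculin, 7 had log2 fold changes above 0, with a median of 0.11 on the log2 scale. With length correction or with library size only, 6 of 9 were above 0 and Lamtor5 was below it, and the median was 0.06 with length correction and also 0.06 without EGCG replicate 2. Rragc (chr4:123917446-123936997, plus strand), one of the RAG GTPases that bring mTORC1 to the lysosome, was counted 2241 and 2216 times in control MDSCs and 2527 and 2575 times after EGCG. These were 123 and 124 CPM and 139 and 144 CPM, with means of 123 ± 0.904 and 142 ± 3.39 CPM (SD, n = 2 libraries each). Both EGCG libraries were higher than both control libraries, by more than the spread within either group. Rragc was 14.9% higher (log2 fold change 0.20, SE 0.07, 95% interval 0.04 to 0.36, unadjusted p = 0.0157, adjusted p = 0.295 by edgeR), and the adjusted p ran from 0.230 to 0.685 over the other settings with all libraries kept and from 0.265 to 0.681 with a library left out. Its log2 fold change was 0.18 to 0.22 with each library left out. Rragc took 91.9% and 93.9% of the summed RPKM of Rragc and Rragd in control MDSCs and 93.5% and 94.1% after EGCG. Among the Ragulator subunits, Lamtor4 was at 132 and 146 CPM against 162 and 149 CPM (log2 fold change 0.16, SE 0.08, adjusted p = 0.453) and Lamtor1, the membrane anchor, at 152 and 166 CPM against 168 and 176 CPM (log2 fold change 0.12, SE 0.08, adjusted p = 0.587). Both were higher without overlap, as was Rraga (0.11 on the log2 scale), while Lamtor2, Lamtor3, Lamtor5, Rragd and Flcn overlapped between the groups at -0.06 to 0.14 on the log2 scale. Without control replicate 1, Lamtor1 was at 0.06 and Lamtor4 at 0.10 on the log2 scale, without EGCG replicate 1 Lamtor4 was at 0.10, and without EGCG replicate 2 Rraga was at 0.02. With a library left out, Lamtor3 ran from 0.04 (control replicate 2) to 0.25 (control replicate 1). The counting ignored strand, and 30.2% of the 31-base words of Lamtor1 and 18.6% of those of Lamtor5 occur in other genes, so these are less certain than Lamtor4 and Rragc.

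The promoters of Mtor and Rictor, from the kinase complexes, and of Rragc and Lamtor4, from the lysosomal genes, are shown as examples of each, picked after the values were seen, although none of the 4 passed the test across all genes. Genes of the lysosome are known for the CLEAR element, whose core is the E-box, and TFEB and TFE3, which mTORC1 holds in the cytosol, bind it. The RefSeq promoter table (GRCm38.p6) held 32 of the 35 members in 41 windows, and Lamtor3, Rps6kb2 and Eif4ebp1 were not matched. The E-box CACGTG, which reads the same on both strands, was found in the 250 bases before the start in 4 of the 41 member windows, one each of Rragc, Lamtor1, Lamtor4 and Rheb, and in 6.02% of all 32851 windows of that length. Lamtor2, Lamtor5, Rraga, Rragd and Flcn, also from the lysosomal genes, held none in their windows. Rragc and Lamtor4 therefore do not stand for that whole group. The windows of Mtor (chr4:148448332-148448581), Rictor (chr15:6708131-6708380), Rragc (chr4:123917183-123917432) and Lamtor4 (chr5:138255232-138255481), all on the plus strand, follow 5′ to 3′ and end at the base before the start site. Capitals mark the E-box.
Mtor: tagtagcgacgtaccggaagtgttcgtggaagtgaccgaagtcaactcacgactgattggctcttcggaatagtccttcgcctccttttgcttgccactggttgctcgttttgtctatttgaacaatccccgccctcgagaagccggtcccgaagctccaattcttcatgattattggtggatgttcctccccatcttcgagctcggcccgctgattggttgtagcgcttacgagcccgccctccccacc
Rictor: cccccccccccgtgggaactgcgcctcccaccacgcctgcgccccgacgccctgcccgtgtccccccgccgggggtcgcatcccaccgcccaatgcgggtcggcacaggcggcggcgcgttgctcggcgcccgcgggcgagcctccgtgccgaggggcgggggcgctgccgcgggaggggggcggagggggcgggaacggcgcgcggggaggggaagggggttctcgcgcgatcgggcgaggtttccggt
Rragc: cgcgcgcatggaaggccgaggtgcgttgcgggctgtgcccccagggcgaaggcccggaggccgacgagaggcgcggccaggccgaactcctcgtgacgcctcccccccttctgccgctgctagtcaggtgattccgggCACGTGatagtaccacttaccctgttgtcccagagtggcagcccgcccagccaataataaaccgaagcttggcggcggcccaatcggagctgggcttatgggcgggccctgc
Lamtor4: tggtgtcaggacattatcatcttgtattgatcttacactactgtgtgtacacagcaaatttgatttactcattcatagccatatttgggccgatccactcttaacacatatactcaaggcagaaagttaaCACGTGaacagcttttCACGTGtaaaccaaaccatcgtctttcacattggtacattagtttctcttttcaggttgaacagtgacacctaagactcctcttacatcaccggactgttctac
Rragc held 1 E-box, 112 bases before the start, and Lamtor4 held 2, at 120 and 104 bases. The Mtor and Rictor windows held none, and they differed in base composition, with 54.4% and 81.2% G and C, whereas the Lamtor4 window had 39.6%. On both strands, the FOXO motif GTAAACA was in 2 member windows (Akt1 and Pik3cg) against 3.17% of all windows, and the antioxidant response core TGACNNNGC in 2 (Lamtor5 and Rheb) against 10.2%. A match describes the sequence only, and the counts do not show which start site was used.

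The direct targets of mTORC1 included the member with the largest log2 fold change above 0. Eif4ebp1 (chr8:27260329-27276674, plus strand), whose product blocks the cap-binding factor eIF4E until mTORC1 phosphorylates it, was counted 2135 and 2223 times in control MDSCs and 2478 and 2658 times after EGCG. These were 117 and 124 CPM and 137 and 149 CPM, with means of 121 ± 5.29 and 143 ± 8.59 CPM (SD, n = 2 libraries each). The groups did not overlap, and the difference of the means was larger than either SD. Eif4ebp1 was 18.3% higher (log2 fold change 0.24, SE 0.08, 95% interval 0.08 to 0.41, unadjusted p = 0.0076, adjusted p = 0.232 by edgeR), and the adjusted p ran from 0.171 to 0.678 over the other settings with all libraries kept and from 0.0746 to 0.659 with a library left out. Its paralog Eif4ebp2 was at 423 and 434 CPM and at 429 and 468 CPM, with overlap (log2 fold change 0.07, SE 0.08, adjusted p = 0.781). Eif4ebp2 took 57.9% and 57.0% of their summed RPKM in control MDSCs and 54.4% and 54.4% after EGCG, a mean difference of -3.01 percentage points. The S6 kinase genes differed less. Rps6kb1 was at 46.4 and 46.4 CPM against 42.4 and 44.4 CPM, lower without overlap (log2 fold change -0.10, SE 0.09, adjusted p = 0.703), and Rps6kb2 at 26.3 and 27.7 CPM against 30.1 and 27.0 CPM, with overlap (log2 fold change 0.08, SE 0.10, adjusted p = 0.805). With a library left out, Eif4ebp2 ran from 0.0025 (EGCG replicate 2) to 0.13 (EGCG replicate 1) and Rps6kb2 from 0.0027 (EGCG replicate 1) to 0.16 (EGCG replicate 2), and Rps6kb1 was at -0.02 with a correction for gene length. Each S6 kinase gene took close to an equal share of their summed RPKM, and 21.1% of the 31-base words of Rps6kb2 occur in other genes.

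**Figure D3:**
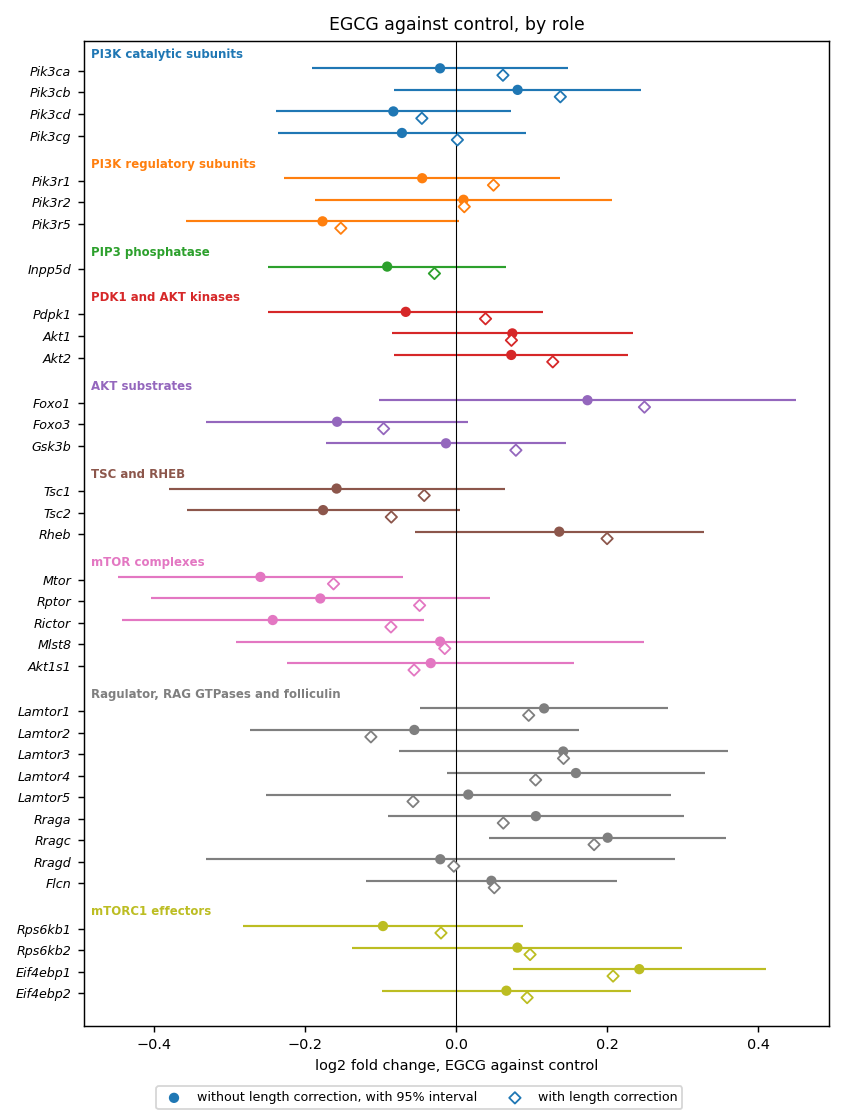
log2 fold change of each member, EGCG against control, by role. Filled points are edgeR's values with 95% intervals, and open diamonds are the values after correction for a trend with gene length. The 5 genes of the mTOR complexes lie below 0 and most of the Ragulator and RAG genes above it. The diamonds of the mTOR complexes lie nearer to 0, except for Akt1s1.

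The fold changes of the members varied with the length of the gene, as they did over the whole table. Spearman's correlation of the log2 fold change with exonic length was -0.604 across the 35 members and -0.286 across 14666 tested genes, as a description across genes, which share the same 4 libraries and are not independent replicates. Of the 12 members over 8 kb, 11 had a log2 fold change below 0, and of all 2174 tested genes of that length 74.1% did. Of the 5 members under 3 kb, 1 was below 0, against 36.8% of 5664 tested genes. The mTOR complex genes had a median of 10109 bases. Mtor (10109), Rptor (13471) and Rictor (16930) were long, but Mlst8 had 4435 bases and Akt1s1 had 3072. The Ragulator and RAG genes had a median of 3215 bases and Eif4ebp1 had 2196. When the trend was removed within each library by a loess fit of log counts on log length, the correlation was -0.225 across the members and -0.0252 across all genes. The median log2 fold change of the mTOR complexes was then -0.06 in place of -0.18, that of the members over 8 kb -0.0092 in place of -0.08, and that of all members 0.04. Mtor was at -0.16 (unadjusted p = 0.0773, edgeR adjusted p = 0.556) and Rictor at -0.09 (unadjusted p = 0.370), and no member was lower at an unadjusted p under 0.05. Eif4ebp1 at 0.21 (unadjusted p = 0.0161), Rragc at 0.18 (unadjusted p = 0.0242) and Rheb at 0.20 (unadjusted p = 0.0392) were higher, with edgeR adjusted p-values of 0.391, 0.425 and 0.462. Over all tested genes, 10.2% were called at an unadjusted p under 0.05 after this correction (5.5% lower and 4.67% higher), and 0.0545% and 0 members at an adjusted p of 0.05. With the correction, Mtor, Rptor and Rictor moved from -0.26, -0.18 and -0.24 to -0.16, -0.05 and -0.09, and all stayed below 0. Mlst8 was at -0.02 with and without the correction, and Akt1s1 went from -0.03 to -0.06. What sets the trend with length was not tested.

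**Figure D4:**
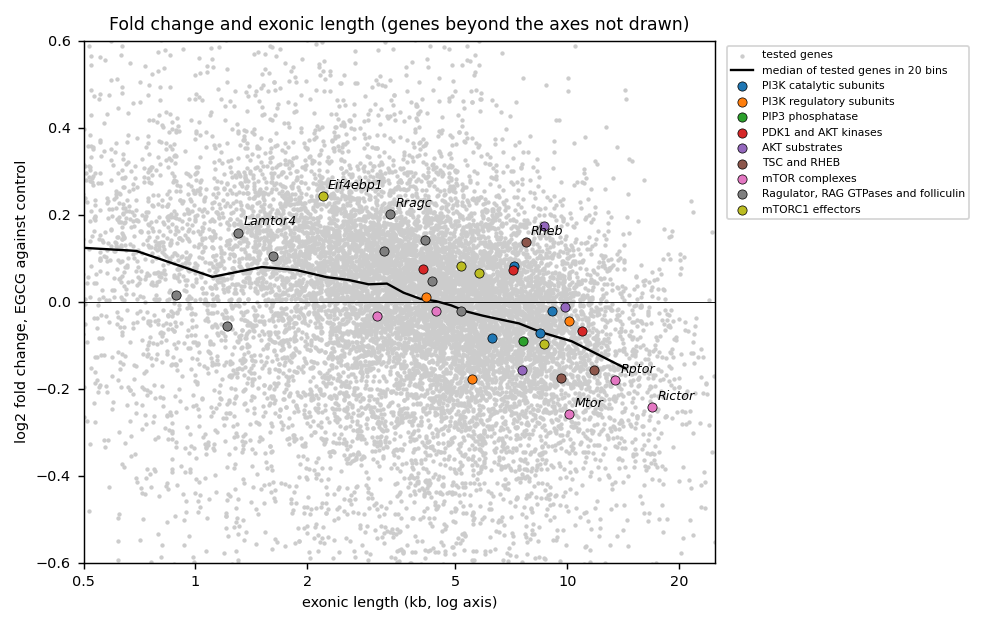
log2 fold change, EGCG against control, against exonic length (kb, log axis) for tested genes (gray) and the 35 members (colored), before correction for length. The line is the median of all tested genes in bins of length. Mtor, Rptor and Rictor lie among long genes, whose median is below 0, and Rragc and Eif4ebp1 among shorter genes.

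Other genes of the pathway, listed for their known roles and with earlier results of these data known, were read in the same fit. Of 66 tested, 0 were called at an adjusted p under 0.05 by edgeR (1 with DESeq2 and 1 with robust estimation). Of 19 tested genes of PI3K and phosphoinositide metabolism, 5 had a log2 fold change above 0 and 14 below. These counts were 7 and 12 with length correction, and 8 and 11 with control replicate 1 left out. Their median was -0.09 (-0.03 or -0.14 with control replicate 1 or 2 left out). By edgeR as reported none was called at an unadjusted p under 0.05, against 7.02% of all tested genes lower and 5.22% higher. With library size only 2 were lower (9.58%), and with GC correction or the replicate block 1 was (7.52% or 7.38%). The number lower was also larger when control replicate 2 or EGCG replicate 2 was dropped. Of 34 tested genes of mTOR regulation, TSC and nutrient sensing, 15 were above 0 and 19 below, with a median of -0.01. The counts were 8 and 26 with library size only, and 18 and 16 with length correction. By edgeR 4 were lower at an unadjusted p under 0.05, against 7.02% of all tested genes. That number was 2 with length correction (5.5%) and 0 with DESeq2 (3.69%), and it was smaller with each library left out. Nprl3, a subunit of the GATOR1 complex that inactivates the RAG GTPases, was at 7.78 and 8.28 CPM in the control libraries and at 6.29 and 5.15 CPM in the EGCG libraries. It was lower without overlap (log2 fold change -0.49, SE 0.18, adjusted p = 0.289), and 17.3% of its 31-base words occur in other genes, with exons that overlap those of Mpg. Larp1, which binds mRNAs of the translation machinery under mTORC1 control, was at 106 and 89.1 CPM and at 81.8 and 87.5 CPM, lower without overlap (log2 fold change -0.21, SE 0.09, adjusted p = 0.382), and 10.3% of its 31-base words occur in other genes. Its log2 fold change was -0.07 without control replicate 1 (edgeR adjusted p = 0.966) and -0.33 without control replicate 2 (edgeR adjusted p = 0.0320), and over all settings with every library kept the adjusted p ran from 0.248 to 0.767. Eif4ebp3, the third eIF4E-binding protein gene, was counted 38 and 24 times in control MDSCs and 16 and 18 times after EGCG, and 66.4% of its 31-base words occur in other genes (log2 fold change -0.85, SE 0.37, adjusted p = 0.376 by edgeR, and -1.13 to -0.50 with a library left out, the latter without control replicate 1).

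The 66 genes included known targets of FOXO factors, which AKT restrains. This list too was chosen with earlier results of these data known. Its counts therefore describe these libraries and do not test FOXO targets as a set. Of 13 tested, 10 had a log2 fold change above 0 and 3 below (8 and 5 with library size only, without control replicate 1 or without EGCG replicate 2), with a median of 0.10, against 50.6% above 0 and a median of 0.0031 over all tested genes. Leaving out control replicate 1 gave a median of 0.05, and leaving out control replicate 2 one of 0.19. At an unadjusted p under 0.05, 5 were higher and 1 lower, against 5.22% and 7.02% of all tested genes. The number higher was 3 with library size only (3.21% of all tested genes) and 3 with DESeq2 (2.59%). It was 4 to 7 in the other settings with all libraries kept (2.83% to 5.85%). Leaving out control replicate 1 or either EGCG replicate made it smaller, and leaving out control replicate 2 made it larger. Bcl6 is a transcriptional repressor and 1 of the genes that the study had itself chosen on these libraries. It was not among the genes whose qRT-PCR changes the study reports as matching its RNA-seq. Bcl6 was at 124 and 117 CPM in the control libraries and at 155 and 150.4 CPM in the EGCG libraries. It was higher without overlap (log2 fold change 0.34, SE 0.07, adjusted p = 0.0870), and it passed the threshold with robust estimation (adjusted p = 0.0492) and with DESeq2 (adjusted p = 0.0349), in a range of 0.0349 to 0.593 over the settings. Leaving out control replicate 1 gave an edgeR adjusted p of 0.0134 and leaving out EGCG replicate 2 one of 0.0433, whereas leaving out control replicate 2 or EGCG replicate 1 gave 0.0528 or 0.134. Gadd45a, a stress-induced growth arrest gene, was at 70.3 and 72.9 CPM and at 81.8 and 88.6 CPM, higher without overlap (log2 fold change 0.25, SE 0.08, adjusted p = 0.230), and 17% of its 31-base words occur in other genes. Klf2, a quiescence factor, was at 243 and 255 CPM and at 264 and 322 CPM, with EGCG replicate 2 well above the rest (log2 fold change 0.24, SE 0.09, adjusted p = 0.323), and its log2 fold change ran from 0.09 to 0.37 with a library left out. Il7r, the receptor chain for interleukin-7, was at 53.9 and 48.0 CPM and at 42.0 and 45.3 CPM, lower without overlap (log2 fold change -0.22, SE 0.09, adjusted p = 0.359), and its log2 fold change ran from -0.30 (without control replicate 2) to -0.13 (without control replicate 1). These genes answer to many other signals, and the activity of FOXO was not measured.

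Markers of the sorted cells and of other spleen cells were read in the same libraries, since in bulk samples fewer cells of a type and less RNA per cell cannot be told apart. The summed level of 13 neutrophil and granule genes was 62473 and 73966 CPM in the control libraries and 82916 and 73710 CPM in the EGCG libraries, so the cells carried the granulocytic genes of the Gr-1 sort. The summed level of 7 monocyte genes was 1496 and 1275 CPM against 1138 and 1185 CPM, and that of 9 macrophage genes 424 and 413 CPM against 322 and 345 CPM, with 9 of 9 below 0. All 5 endothelial genes were also below 0, at 131 and 139.7 CPM in sum against 103 and 111 CPM. B cell genes summed to 1753 and 1848 CPM against 1948 and 2004 CPM, with 5 of 6 above 0. Basophil and eosinophil genes summed to 1258 and 1134 CPM against 1104 and 965 CPM, with 4 of 6 below 0, and platelet and megakaryocyte genes to 38.7 and 43.6 CPM against 35.4 and 34.2 CPM, with 5 of 5 below 0. T cell genes summed to 91.8 and 104 CPM against 105 and 109 CPM, with 4 of 6 above 0. The groups overlapped for the erythroid list at 142 to 191 CPM, the dendritic cell list at 10.8 to 12.3 CPM and the NK cell list at 4.31 to 6.07 CPM. Of 67 markers tested, 0 passed an adjusted p of 0.05 by edgeR as reported, but 4 did with library size only (Fn1, Mrc1, Cd5l and Cdh5, all lower), 1 with robust estimation (Mrc1) and 2 with DESeq2 (Cd5l and Mrc1). With a library left out, 1 passed without control replicate 1 (Adgre1, lower), 13 without control replicate 2 (9 lower and 4 higher), 2 without EGCG replicate 1 (Fn1 and Prg2, lower) and 9 without EGCG replicate 2 (8 lower and 1 higher). No gene of these lists was at or under 3 counts in every library. Single genes carried some of these sums. Without Ighm the B cell sum was 349 and 369 CPM against 397 and 362 CPM, without Cd3d the T cell sum was 16.6 and 18.3 CPM against 17.3 and 18.8 CPM, and without Itga2b the platelet sum was 8.27 and 14.3 CPM against 9.27 and 11.03 CPM, and each then overlapped. Within the basophil and eosinophil list, the eosinophil genes Prg2 and Epx were at -0.26 and -0.31 on the log2 scale and the basophil genes Mcpt8, Prss34 and Cpa3 at -0.03, 0.02 and 0.16. Without S100a9 the neutrophil sum no longer overlapped, at 40018 and 45674 CPM against 51248 and 46703 CPM. Of the monocyte genes, 6 of 7 were below 0. Fn1 (-0.72), F13a1 (-0.32) and Csf1r (-0.14) were lower without overlap, and the others overlapped, among them Ly6c2 (0.12) and Ccr2 (-0.0021). The monocyte, macrophage, endothelial, and basophil and eosinophil sums were lower in the EGCG libraries with and without their most abundant gene, in the same libraries in which Mtor and Rictor were lower. The monocyte sum without Csf1r still held Fn1, at 490 and 304 CPM in the control libraries against 218 and 263 CPM. The part of these cell types in the differences was not tested.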

How the data were processed

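RNA-seq was performed on 4 libraries, 2 of control and 2 of EGCG-treated MDSCs, grouped by their labels. Alignment to GRCm38 by the authors used STAR 2.6.0c, and featureCounts 1.6.2 with Ensembl annotation gave reads per gene, strand ignored. The deposited values are these whole-number counts, not normalized. The labels place the harvest on day 21 after injection, whereas the methods of the study give a shorter interval. The p-values and intervals cover the spread of 2 libraries a group.

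Genes past filterByExpr (minimum count of 10) were fitted in edgeR 4.0.16 (R 4.3.3; TMM scaling, legacy quasi-likelihood test, no block), with Benjamini-Hochberg adjustment and a threshold of 0.05. The methods of the study name this test. The procedure was first tested on simulated data. RPKM used the union of exons in GENCODE M21, which held 53360 of the 53465 gene identifiers. Length correction used a loess span of 0.4 as an offset. The members and lists were chosen with earlier results of these data known. Library values are given for members with an unadjusted p under 0.05, for all PI3K catalytic, mTOR complex and mTORC1 effector genes, and for the largest fold change in each other role. They are also given for Akt2, Foxo3, Gsk3b, Tsc1, Rheb, Lamtor1 and Lamtor4. Of each other list, up to 3 genes a direction with the smallest unadjusted p are named. The other settings were other scalings and filters, newer and robust edgeR fits, DESeq2 1.42.0, length and GC corrections, a replicate block, other length measures and leaving out each library. Irs1, Rragb and Prkaa2 had too few counts to be tested. Python 3.11.15, pandas 2.3.3, NumPy 2.4.6, SciPy 1.17.1 and matplotlib 3.10.9 were also used.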

Additional observations from a re-analysis of the deposited data

How the results depend on the processing

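Of the 35 members, 27 kept their direction in all 12 other settings and 23 also with each library left out, and none passed an adjusted p of 0.05 in any of them. The number lower at an unadjusted p under 0.05, 2 as reported, was 5 with library size only (9.58% of all tested genes), 1 with DESeq2 (3.69%), 0 with length correction (5.5%) and 4 with GC correction (7.52%), against 7.02% as reported, and 0 to 5 with a library left out (0 without control replicate 1, 5 without control replicate 2). The number higher, also 2 as reported, was 1 to 5 with a library left out (1 without EGCG replicate 2, 5 without control replicate 2). The median of the members was -0.057 with library size only, which moved the median of all tested genes to -0.032, and 0.039 with length correction, and -0.016 to 0.040 with a library left out. Log2 fold changes near 0 changed sign. With length correction these were Pik3ca (0.062), Pik3cg (0.0017), Pik3r1 (0.049), Pdpk1 (0.039), Gsk3b (0.079) and Lamtor5 (-0.057), and with library size only Pik3r2 (-0.026) and Lamtor5 (-0.017). With a library left out, Pik3ca ran from -0.075 to 0.040, Pik3r1 from -0.16 to 0.063, Pik3r2 from -0.055 to 0.084, Pdpk1 from -0.18 to 0.034, Gsk3b from -0.049 to 0.021, Mlst8 from -0.17 to 0.15, Akt1s1 from -0.082 to 0.013, Lamtor2 from -0.15 to 0.037, Lamtor5 from -0.15 to 0.21, Rragd from -0.21 to 0.21 and Flcn from -0.019 to 0.12. The causes were not tested.

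The labels number the replicates, but the deviations of same-numbered libraries from their group means correlated at 0.0268 over 14682 genes, with only 2 pairs, so the numbers were not taken to pair the libraries. With the replicate block, 4 members were lower at an unadjusted p under 0.05 (7.38% of all tested genes). With the replicate block and length correction 0 were lower (5.67%) and 4 higher (4.8%), the median was 0.036, and Pik3ca (0.062), Pik3cg (0.0024), Pik3r1 (0.047), Pdpk1 (0.036), Gsk3b (0.079), Lamtor5 (-0.053) and Rragd (0.0051) changed sign.

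Among the 66 other pathway genes, 1 passed an adjusted p of 0.05 with robust estimation and 1 with DESeq2, and 0 to 2 with a library left out (0 only without EGCG replicate 1, and 2 without control replicate 2). The number lower at an unadjusted p under 0.05 was 5 as reported, against 7.02% of all tested genes. It was 3 without the filter on low counts (3.7%) and 0 with DESeq2 (3.69%). With length correction it was 3 (5.5%), and with the block and length correction 3 (5.67%). It was smaller without control replicate 1 or EGCG replicate 1, and larger without control replicate 2 or EGCG replicate 2. The number higher, 5 as reported, was 3 with library size only and 3 with DESeq2, and 1 to 6 with a library left out (3 without control replicate 1, 1 without EGCG replicate 2). Their median was -0.045 with library size only.

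Shares of RPKM over all libraries depended on the length used. By the longest transcript and by CPM, the latter chosen after seeing the data, the share of Pik3cd and Pik3cg was 85.5% and 81.2% in place of 82.5%, that of Akt1 85.7% and 78.0% in place of 86.0%, that of Eif4ebp2 53.6% and 76.9% in place of 55.9%, that of Rictor 50.8% and 59.3% in place of 53.7%, and that of Rps6kb1 57.3% and 61.8% in place of 49.1%. The share of Rragc was 90.1% by CPM in place of 93.4%. Over the whole table, 22 genes passed an adjusted p of 0.05 as reported, 151 with library size only, 64 with DESeq2, 63 with robust estimation, 40 with GC correction, 11 with upper-quartile scaling, 8 with length correction, 0 without the filter on low counts and 93 to 540 with a library left out.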
